A study of Mus musculus with 6 samples.

Results

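The genes described here are 8 genes of the podocyte, the epithelial cell that covers the outside of the glomerular capillaries: Nphs1, Podxl, Wt1, Synpo, Ptpro, Magi2, Cd2ap and Plce1. They were taken by gene symbol from a table of 19176 rows, without use of their values, and all 8 were found there, each on 1 row. Renal cortex was sequenced from 3 mice with unilateral ischemia-reperfusion injury given vehicle (UIRI group) and from 3 mice with the same injury given bruceine A, a quassinoid from Brucea javanica (UIRI + BA group). The labels write the compound as brucine A. BA was injected into the peritoneum every day at 1 mg/kg, and the cortex was taken on day 14. All 6 animals were wild-type C57BL/6J mice, which the methods give as young adult males whose left renal pedicle was clamped and whose other kidney was removed the day before tissue was collected. Each group therefore carries the injury, no uninjured kidney was analysed here, and the comparison is of BA with vehicle. The vehicle mice are those of the UIRI libraries and the BA mice those of the UIRI + BA libraries, numbered by replicate. The labels describe the cortex as a mixture of tubular and interstitial cells and do not speak of glomeruli.

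Podocytes wrap the capillaries with interdigitating foot processes. Neighbouring foot processes are joined by the slit diaphragm, a specialised junction that holds back plasma protein, and an actin skeleton keeps the processes in shape. Podocytes scarcely divide, so a loss of podocyte transcripts in a kidney is commonly read as damage to, or loss of, these cells. Some of the 8 genes are close to specific to the podocyte within the kidney (Nphs1, Wt1), whereas others are also transcribed elsewhere (Podxl in endothelium, Cd2ap and Plce1 in many cell types).

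None of the 8 podocyte genes passed the test between UIRI and UIRI + BA. Their log2 fold changes with BA ran from -0.13 for Plce1 to 0.13 for Magi2, with 3 genes higher, 5 lower and a median of -0.06, beside a median of -0.01 over all rows (limma on log2 of the normalized count plus 1). The adjusted p-values of the 8 genes ran from 0.657 to 0.940 in limma's test. An adjusted p below 0.05 was found for 0% of all rows as well, and the smallest over the table was 0.225. An unadjusted p below 0.05 was given to 1971 rows, or 10.3% of the table, and to 0 of the 8 podocyte genes. The groups did not overlap in 14.4% of all rows and in 0 of the 8 podocyte genes. Both other tools, run on whole reads recovered from the deposited values, also placed 0 of the 8 genes below an unadjusted p of 0.05. Over the table, 1511 of 19171 rows tested with DESeq2 had such a p. With edgeR's quasi-likelihood test it was 1703 of 17155 rows. At an adjusted p below 0.05, DESeq2 called 213 genes over the table and edgeR called 0. In pieces of tissue, fewer podocytes and less RNA in each podocyte cannot be told apart.

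The promoters of the members could be looked up for 5 of the 8 genes in the RefSeq table of build GRCm38.p6, namely Nphs1, Ptpro, Magi2, Cd2ap and Plce1. The stretches upstream of Ptpro and Magi2 are shown because these genes follow different patterns across the libraries (described further on) and their upstream bases lie outside the annotated exons. Both read 5′ to 3′ on the plus strand, and the capitals mark CG dinucleotides.
Ptpro, chr6:137252049-137252298: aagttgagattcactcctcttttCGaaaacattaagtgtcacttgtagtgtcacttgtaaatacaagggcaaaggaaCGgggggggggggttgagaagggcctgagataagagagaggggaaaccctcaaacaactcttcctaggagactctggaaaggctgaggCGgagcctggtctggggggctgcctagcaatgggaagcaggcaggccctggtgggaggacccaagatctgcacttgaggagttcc
Magi2, chr5:19226796-19227035: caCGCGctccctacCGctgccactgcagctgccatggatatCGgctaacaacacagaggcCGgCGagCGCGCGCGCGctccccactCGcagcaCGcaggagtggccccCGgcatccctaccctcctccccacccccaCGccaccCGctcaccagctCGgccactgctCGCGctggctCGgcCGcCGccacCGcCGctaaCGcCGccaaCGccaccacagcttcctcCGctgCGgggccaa
The Ptpro stretch held 3 CG dinucleotides in 250 bases and the Magi2 stretch 29 in 240 bases. Magi2 has a second start in the table, whose upstream window (chr5:19907268-19907517) held 3, as many as that of Ptpro. Over all 32841 promoters of that table the median was 6 CG dinucleotides in the same window, and 93.2% of promoters held fewer than the first Magi2 start does. Nphs1, with 5 CG dinucleotides, and Plce1, with 6, lay near this median, and Cd2ap had 31. The windows of Nphs1 and Plce1 lay inside the annotated genes and began in an annotated exon. That of Cd2ap met an annotated exon after 9 bases. A pair of GC-rich sequences bound by zinc-finger factors of the WT1 and EGR kind, GCGGGGGCG and GCGTGGGAG, was looked for on both strands. They stood in 2.57% and 0.405% of all promoters and in none of the windows found for the 5 genes.

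Reads on genes numbered 16510720 to 38124164 per library, the most in UIRI replicate 3. The least read podocyte gene, Magi2, had 210 to 479 reads per library, and the most read, Cd2ap, 5769 to 14827. All 8 genes were thus detected in all 6 libraries without a filter on low values. Counting error alone would give a coefficient of variation of 1.19% for Cd2ap and 6.27% for Magi2.

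Nphs1 encodes nephrin, the adhesion protein that spans the slit diaphragm. It lies on the plus strand of chromosome 7, from 30458315 to 30487223 (GENCODE release M21, build GRCm38, tied to the table by symbol only, since the study's own build is not given in the sources used here). Its normalized counts were 506, 634 and 389.9 in vehicle mice 1 to 3 and 465, 636 and 379 in BA mice 1 to 3. Replicate 2 was highest and replicate 3 lowest in both groups, and the groups overlapped almost completely. The mean was 510.2 ± 122 (SD, n = 3) in the vehicle mice and 493 ± 131 (SD, n = 3) in the BA mice. The log2 fold change of Nphs1 was -0.05 (95% interval -0.53 to 0.43, limma adjusted p 0.940). Of the 8 genes, nephrin varied most between animals of a group, 1.63-fold from lowest to highest in the vehicle mice and 1.68-fold in the BA mice, where counting error gives a coefficient of variation of 4.57%. The direction of this small difference was set by single libraries: without UIRI replicate 2 it was 0.12, and without UIRI + BA replicate 3 it was 0.12.

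Magi2 and Cd2ap encode partners of nephrin on the inner side of the membrane. Magi2, on chromosome 5 from 19227036 to 20704792, encodes a scaffold protein with several PDZ domains that binds the tail of nephrin. Its normalized counts were 238, 252 and 262 in the vehicle mice and 296, 256 and 274 in the BA mice. The lowest of the BA libraries, replicate 2, lay within the UIRI range. With BA it differed by 0.13 on the log2 scale (95% interval -0.11 to 0.38, limma adjusted p 0.665), and an exact two-sided permutation test gave p = 0.2, where 3 against 3 cannot go below 0.1.

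Cd2ap, on chromosome 17 from 42792951 to 42876665, encodes an adaptor that ties nephrin to actin and is also made in tubules and leukocytes. UIRI replicates 1 and 2 read 6536 and 6532, and UIRI replicate 3 read 8120, the highest of all. In UIRI + BA the counts were 8001, 7698 and 7112, so that all 3 lay between the low pair and the high library of the UIRI group. The log2 fold change was 0.11 (95% interval -0.12 to 0.34, limma adjusted p 0.701). Without UIRI replicate 3 it was 0.22, with an unadjusted p of 0.0171 and an adjusted p of 0.118 from limma. In that fit 4838 of the 19176 rows had an unadjusted p below 0.05.

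Plce1, on chromosome 19 from 38481109 to 38785030, encodes phospholipase C epsilon, a signaling enzyme whose inherited loss causes nephrotic syndrome. Counts of 435, 380.2 and 413 in the vehicle mice stood against 357, 359.7 and 406 in the BA mice. Only BA replicate 3 reached into the UIRI range. The log2 fold change of Plce1, -0.13, was the lowest of the 8 genes (95% interval -0.36 to 0.10, limma adjusted p 0.657, exact two-sided permutation p = 0.2).

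Podxl and Ptpro encode proteins of the free, urine-facing surface of the foot process. Podxl, on chromosome 6, minus strand, from 31519488 to 31563981, encodes podocalyxin, a heavily charged sialomucin that keeps foot processes apart and that also coats vascular endothelium. It read 4131, 5074 and 4534 in the vehicle mice and 5067, 5556 and 4342 in the BA mice, with BA replicate 3 between the lower 2 UIRI libraries. Podxl differed by 0.12 on the log2 scale (95% interval -0.13 to 0.37, limma adjusted p 0.703).

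Ptpro, on chromosome 6 from 137252319 to 137463233, encodes a receptor-type tyrosine phosphatase also known as GLEPP1. UIRI libraries read 915, 1066 and 844, and UIRI + BA libraries read 896, 948 and 839. As for nephrin, replicate 2 was highest and replicate 3 lowest in each group. Its log2 fold change was -0.07 (95% interval -0.30 to 0.16, limma adjusted p 0.813), and it turned to 0.02 without UIRI replicate 2.

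Synpo encodes synaptopodin, which binds actin in the foot processes, and is found on chromosome 18, minus strand, from 60593973 to 60660142. The UIRI libraries were close to each other at 3438, 3473 and 3141. Among the UIRI + BA libraries, replicate 2 was the highest of all at 3710.0, and replicates 1 and 3 were the lowest at 2905 and 2749. The coefficient of variation was thus 5.45% in the vehicle mice and 16.5% in the BA mice. The log2 fold change of Synpo was -0.11 (95% interval -0.37 to 0.14, limma adjusted p 0.725). Without UIRI + BA replicate 2 it was -0.24, with an unadjusted p of 0.0294 and an adjusted p of 0.493 from limma. In that fit 1860 of the 19176 rows had an unadjusted p below 0.05.

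Wt1 encodes the zinc-finger transcription factor that maintains the podocyte program in the adult kidney, and lies on chromosome 2 from 105126529 to 105173616. Its counts were 443, 508 and 420.0 in the vehicle mice and 417, 482 and 391 in the BA mice. Here too replicate 2 was highest and replicate 3 lowest in both groups. On the log2 scale Wt1 differed by -0.09 (95% interval -0.35 to 0.17, limma adjusted p 0.793).

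**Figure D1:**
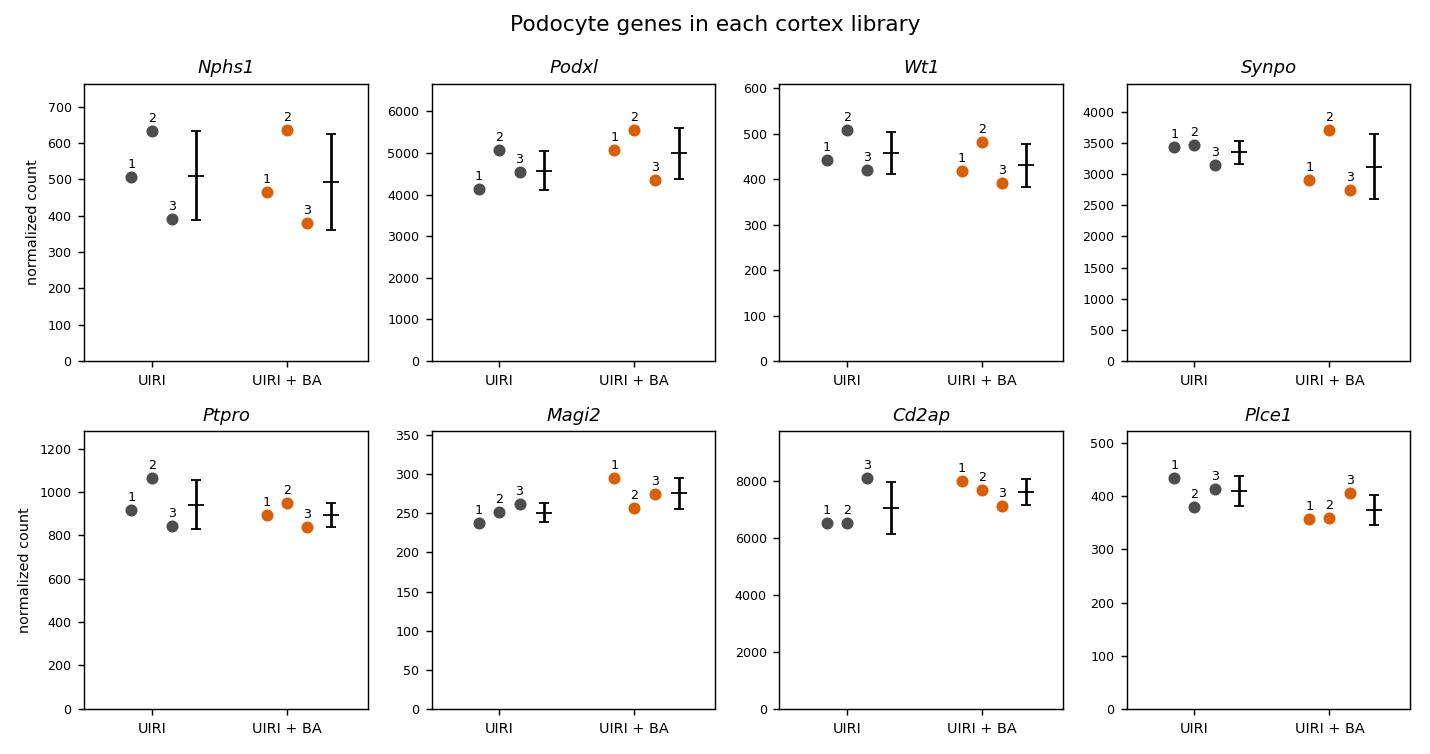
Normalized counts of the 8 podocyte genes (vertical axis, from 0) in each of the 3 UIRI libraries (grey) and the 3 UIRI + BA libraries (orange), labelled by replicate number, with the mean and SD of each group beside the points. The 2 groups overlap in every panel, and replicate 2 is the highest library of both groups for Nphs1, Wt1, Synpo, Ptpro and Podxl.

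The intervals limit how large a difference these 6 libraries leave room for. For 7 of the 8 genes the 95% interval of the fold change lay between 0.774 and 1.30 times the UIRI level, and for Nphs1 it ran from 0.691 to 1.34 times. A doubling or halving (a log2 fold change of 1 or -1) lay outside the interval of each of the 8 genes. The mean log2 level of the 8 genes was 10.09, 10.21 and 10.07 in vehicle mice 1 to 3 and 10.11, 10.23 and 9.997 in BA mice 1 to 3. The group means of this level differed by -0.01, less than the range of 0.23 among the 6 libraries. The median size of the log2 fold changes of the podocyte genes, either way, was 0.11, beside 0.10 for the 10528 rows with a mean at least that of Magi2.

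**Figure D2:**
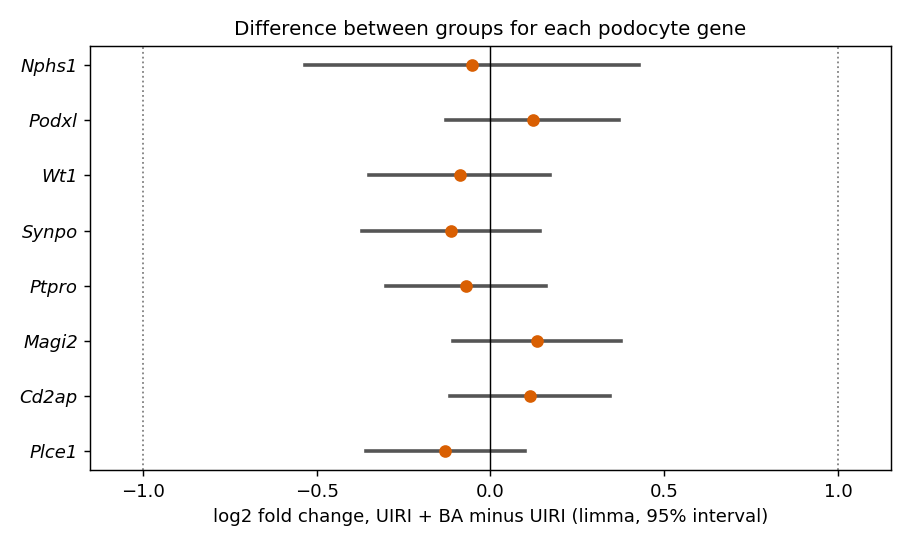
Log2 fold change with BA (point) and its 95% interval from limma (line) for each podocyte gene, with dotted lines at -1 and 1. All 8 intervals cross 0 and stay inside the dotted lines, and the widest is that of Nphs1, from -0.53 to 0.43.

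Levels can be set side by side between genes only per length. As normalized count per kilobase of annotated exon, Podxl was highest, with 834 ± 86.2 (SD, n = 3) in the vehicle mice and 909 ± 111 (SD, n = 3) in the BA mice. Cd2ap followed with 445 ± 57.7 and 479 ± 28.5 per kilobase, then Synpo with 351 ± 19.2 and 327 ± 54.1 and Ptpro with 140.1 ± 16.9 and 133 ± 8.09 (each SD, n = 3, UIRI before UIRI + BA). Nphs1 (77.1 ± 18.5 and 74.5 ± 19.8 per kilobase) and Wt1 (73.8 ± 7.40 and 69.5 ± 7.58) did not differ beyond their spread. At the lower end, Plce1 (25.6 ± 1.73 and 23.4 ± 1.72) and Magi2 (22.1 ± 1.08 and 24.3 ± 1.73) stood in opposite order in the 2 groups. The order of the other genes was the same with and without BA. The length is that of all annotated exons of a gene together, and the isoforms in use are not known from the table.

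Within the groups, the 8 genes fell into different patterns across the libraries. Nphs1, Wt1, Ptpro and Synpo were highest in replicate 2 and lowest in replicate 3 of each group. The 6 pairings among these 4 genes had Pearson correlations of 0.678 (Synpo and Ptpro) to 0.946 (Nphs1 and Wt1) on the log2 scale over the 6 libraries. The points of such a correlation share their libraries, depth and scaling, and the 4 genes were grouped after their values were seen. Podxl correlated at 0.658 with Nphs1. Cd2ap, Magi2 and Plce1 each had negative correlations with Nphs1, of -0.369, -0.443 and -0.476, and Plce1 ran opposite to Podxl (-0.931). Of all 28 pairings of the 8 genes, 13 were positive, so the mean over the 8 genes joins differing patterns and does not measure the glomerular content of a library.

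**Figure D3:**
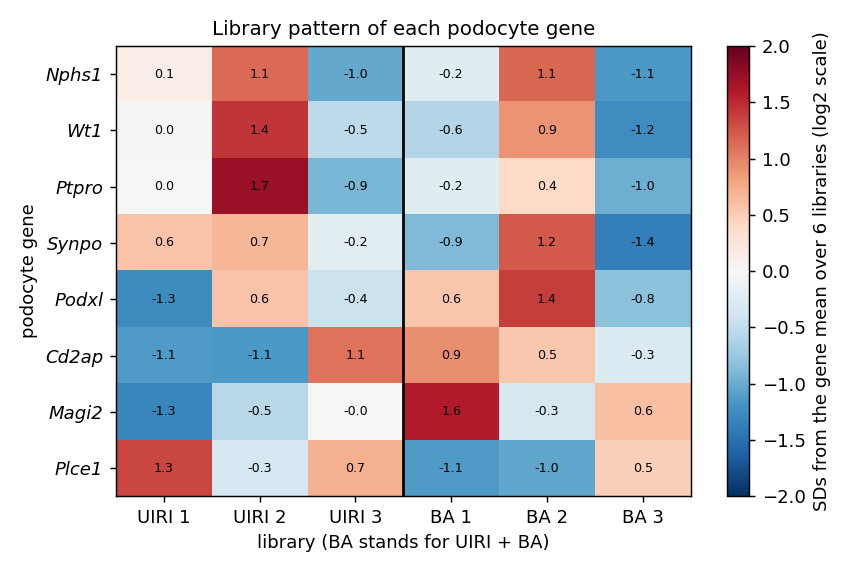
Each podocyte gene (rows) in each library (columns, UIRI left and UIRI + BA right of the black line), as SDs from the mean of that gene over the 6 libraries on the log2 scale. Nphs1, Wt1, Ptpro and Synpo are highest within each group in replicate 2, where Nphs1 stands at 1.1 in both, and Cd2ap, Magi2 and Plce1 are not.

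UIRI replicate 3 and UIRI + BA replicate 3, the libraries lowest in Nphs1, were also highest for a list of 10 urothelium genes, with a mean log2 level of 6.40 and 5.84, beside 3.30 to 5.06 in the other 4 libraries. Within this list, Upk2 (0 to 37 reads per library) was at 0 in UIRI + BA replicates 1 and 2. Upk3a (0 to 108 reads) was at 0 in UIRI + BA replicate 2. Krt20, the most read gene of the list, did not share the pattern. It read 1067, 1229 and 1000.5 in the vehicle mice and 1196, 1717 and 1491 in the BA mice. The other genes of the list were each highest in replicate 3 of both groups. Whether the amount of urothelium or of another region in a piece of cortex had a part in the podocyte values was not tested.

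By Pearson correlation over the 6 libraries with the mean standardized profile of the 8 genes, the 10 most similar among genes averaging 100 normalized counts or more were Nes, Tnip2, Prkd2, Dnmt1, Slc4a9, Clca3a1, Crtc3, Sema3g, Mlxip and Myh9. Correlations of these 10 genes ran from 0.961 to 0.987. Nes, which encodes nestin, an intermediate filament protein of podocytes, led them with counts of 2695, 2926 and 2706 in the vehicle mice and 2825, 2985 and 2589 in the BA mice. Sema3g, a secreted semaphorin of podocytes, read 1039, 1151 and 1059 in the vehicle mice and 1126, 1192 and 945 in the BA mice. Apart from Nes and Sema3g, these 10 genes were in none of the gene lists looked at. A correlation of at least 0.9 was reached by 55 of the 12648 genes compared, or 0.435%, among them 3 of the other podocyte genes looked at. With 6 libraries this likeness is unsteady: when any 1 library was dropped, only 1 to 5 of these 10 stayed among the first 10.

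A further 52 genes of podocytes and their basement membrane were looked up from 5 lists, and 51 were in the table. By the sign of the log2 fold change, 22 of these were higher with BA and 29 lower, around a median of -0.05. An adjusted p below 0.05 from limma was found for 0 of the 51, and an unadjusted one for 9 (3 higher, 6 lower), or 17.6% beside the 10.3% of the table. Leaving out UIRI replicate 1 or 3 moved this count to 3 or 21, and leaving out UIRI + BA replicate 1 moved it to 4. Over the whole table such rows then numbered 808, 4838 and 1270, in the same order. An adjusted p below 0.05 was reached by 2 of the 51 in DESeq2 (Kirrel3, 0.0325, and Cdkn1c, 0.0312), by 0 in edgeR, and in limma without UIRI replicate 3 by 4 (Kirrel3, Cdkn1c, Clic5 and Cldn5). Over the whole table DESeq2 called 213 rows and limma without UIRI replicate 3 called 962.

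The other slit diaphragm genes held 1 of the 9 (11.1% of this list, beside 10.3% of all rows). Kirrel3, which encodes a relative of the nephrin partner NEPH1, read 285, 277 and 264 in the vehicle mice and 194, 189.5 and 188 in the BA mice, without overlap. Its log2 fold change of -0.53 (95% interval -0.76 to -0.30) had an adjusted p of 0.225 from limma. This is close to the smallest of the table, but many other rows shared the value after adjustment. Kirrel, which encodes NEPH1 itself, had a log2 fold change of -0.11 (limma adjusted p 0.698).

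Of 6 other transcription factors of podocytes, 5 were lower with BA and 2 had an unadjusted p below 0.05 (33.3%, beside 10.3% of all rows). Foxc1, a forkhead factor, had a log2 fold change of -0.39 (limma adjusted p 0.444), with overlapping groups. Lmx1b, a LIM homeobox factor needed for podocyte development, rested on few reads and had a log2 fold change of -0.21 (95% interval -0.74 to 0.32). The log2 fold changes of 7 leukocyte genes ran from -0.33 to -0.01 around a median of -0.17.

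Among 12 genes of the podocyte skeleton and its regulators, 8 were higher with BA. An unadjusted p below 0.05 was given to 2 (16.7%, beside 10.3% of all rows), both of them higher. Clic5, a partner of ezrin in foot processes that endothelium also expresses, read 1263, 1445 and 1612 in the vehicle mice and 1968, 1915 and 1757 in the BA mice, which is 0.39 on the log2 scale (95% interval 0.16 to 0.62, limma adjusted p 0.291). Nck1, an adaptor that binds phosphorylated nephrin, had a log2 fold change of 0.21 (limma adjusted p 0.432). The groups did not overlap for either gene.

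The 11 genes of the glomerular basement membrane and its receptors had a median log2 fold change of -0.05. Col4a5, which encodes a collagen IV chain, was the only one with an unadjusted p below 0.05 (9.09% of the list, beside 10.3% of all rows). It stood at 1882 ± 51.5 in the vehicle mice and 1650.1 ± 17.4 in the BA mice (SD, n = 3). Its log2 fold change was -0.19 with an adjusted p of 0.431 from limma. The chains that join it in this membrane, Col4a3 and Col4a4, had log2 fold changes of -0.002 and 0.02. Col4a3 read 2954, 2995 and 3594 in the vehicle mice and 3226, 2703 and 3632 in the BA mice, so that it was high where Nphs1 was low (r = -0.93 over 6 libraries). The list was split in this respect. Its other genes had correlations with Nphs1 from -0.946 (Col4a4) to 0.931 (Lama5).

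Of 13 other genes enriched in podocytes, Cdkn1c, Cldn5 and Vegfa had an unadjusted p below 0.05 (23.1%, beside 10.3% of all rows). Cdkn1c, which encodes the cell cycle inhibitor p57 and marks mature podocytes, read 1188, 889 and 739 in the vehicle mice and 490, 658 and 647 in the BA mice, the largest difference among the 51 genes (log2 fold change -0.63, 95% interval -1.03 to -0.24, limma adjusted p 0.312). Cldn5, a tight junction gene of podocytes and endothelium, had a log2 fold change of -0.49 with overlapping groups (limma adjusted p 0.442). Vegfa, the growth factor that podocytes and tubules both make, was at 3129 ± 139 in the vehicle mice and 3551 ± 81.8 in the BA mice (SD, n = 3), which is 0.18 on the log2 scale (limma adjusted p 0.448).

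The other cells of the glomerulus were read from lists of their own. Of 9 genes of glomerular and general endothelium, 0 had an unadjusted p below 0.05, beside 10.3% of all rows. Their median log2 fold change was -0.02. Ehd3, largely restricted to glomerular endothelium within the kidney, read 647, 767 and 733 in the vehicle mice and 707, 818 and 730.4 in the BA mice, which is 0.07 on the log2 scale (95% interval -0.15 to 0.29). Kdr and Pecam1, of endothelium in general, had log2 fold changes of -0.007 and -0.02. Of 8 genes found in mesangium, 7 were lower with BA and 3 had an unadjusted p below 0.05 (37.5%, beside 10.3% of all rows). All 3 were lower: Serpine2 (-0.37), Des (-0.30) and Pdgfrb (-0.20). This count of 3 fell to 1 without UIRI replicate 1 or UIRI + BA replicate 3 and to 2 without UIRI + BA replicate 1, all lower. Without UIRI replicate 2 it was 2, of which 1 was higher and 1 lower. Rows of the whole table with an unadjusted p below 0.05 then numbered 808, 1612, 1270 and 1339, in the same order. Without UIRI replicate 3, Serpine2 and Des had an adjusted p below 0.05 in limma, among 962 such rows of the whole table. Itga8, an integrin subunit of mesangial cells, differed by -0.04 on the log2 scale (95% interval -0.26 to 0.18). Pdgfrb and Des are also made in interstitial pericytes and fibroblasts. The 8 fibroblast genes looked up were all lower with BA, and the median of their log2 fold changes was -0.32. The part of such cells in the values of the mesangium genes was not tested.

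The tubules of the same pieces of cortex were read in the same way. The mean log2 level of 12 proximal tubule genes differed by 0.65 between the groups, where that of the 8 podocyte genes differed by -0.01. The median log2 fold change was 0.68 for the proximal tubule genes and -0.06 for the podocyte genes. The 3 UIRI libraries stood at 10.94, 11.03 and 11.57 for the proximal tubule and the 3 UIRI + BA libraries at 11.83, 11.64 and 12.02. Genes of the thick limb had a median log2 fold change of 0.11 (6 genes) and those of the collecting duct of 0.21 (9 genes). The thick limb median turned to -0.09 without UIRI replicate 2 and to -0.02 without UIRI + BA replicate 3, and was 0.24 without UIRI replicate 3. When UIRI + BA replicate 2 was dropped the collecting duct median was 0.10, and when UIRI + BA replicate 3 was dropped it was 0.43. The difference between the medians of these lists was not tested.

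**Figure D4:**
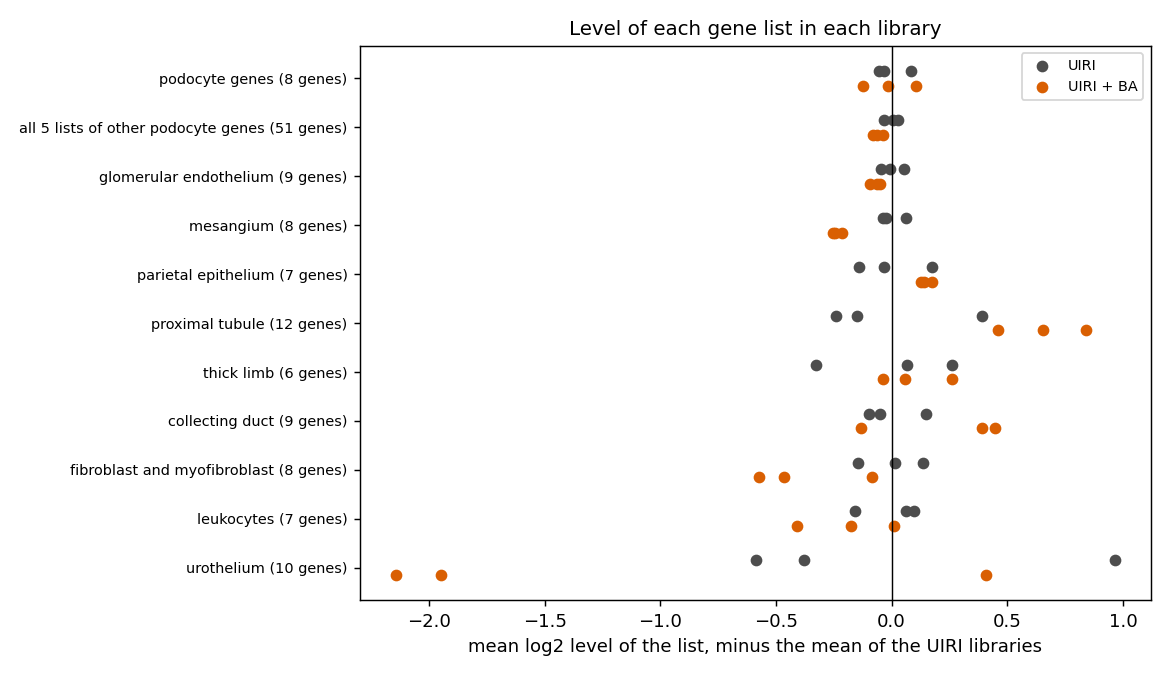
Mean log2 level of each gene list in each UIRI (grey) and UIRI + BA (orange) library, less the mean of the 3 UIRI libraries for that list. The podocyte genes stay between -0.125 and 0.107, whereas the proximal tubule list runs from -0.24 to 0.84 and the urothelium list from -2.14 to 0.96.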

How the data were processed

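Poly(A) RNA of 6 renal cortex libraries, 3 per group, was sequenced. Per the methods, the authors used HISAT2 for alignment, FeatureCounts for the gene counts and DESeq2 for testing. The methods name FPKM, but the deposited signal of each gene and library equals its reads over a scaling factor of that library: 100% of values were whole multiples of 1 step per library (tolerance 0.001 read), and whole reads were recovered from them. Rows with fewer than 10 reads in all are absent. The authors' fold changes, p-values and enrichment tables were not used; 0 columns of values per library went unused. These are not raw counts, so the test was limma 3.58.1 in R 4.3.3, fitted to log2(value + 1) with a variance trend, all 19176 rows, no covariate and Benjamini-Hochberg adjustment. DESeq2 1.42.0 and edgeR 4.0.16 on recovered reads, a pseudocount of 0.1, upper quartile or quantile scaling, dropping rows below 1 in any library, a replicate block and omission of single libraries were the alternatives. Tools were tested on simulated data. Single genes were compared by exact permutation with scipy 1.17.1.

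The 15 gene lists, 136 genes in all, include the list of the 8 genes, which were given by symbol. The other lists were chosen with earlier results of these data known. The named genes were the 8 genes, list genes with an unadjusted p below 0.05, the defining genes Kirrel, Lmx1b, Col4a3, Col4a4, Ehd3, Kdr, Pecam1, Itga8 and Pdgfrb, and the 10 genes most alike in pattern; 1 further gene of this rule is not reported here. Depth ran from 16510720 to 38124164 reads on genes. Replicates were separate animals, and their number limits precision more than counting does for most of the 8 genes.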

Additional observations from a re-analysis of the deposited data

How the results depend on the processing

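None of the 8 podocyte genes had an adjusted p below 0.05 in any alternative run. Of 104 log2 fold changes of these genes under alternatives, 101 kept their direction and their side of the threshold and 3 changed direction, all with a library left out: Nphs1 (0.117 without UIRI replicate 2, 0.12 without UIRI + BA replicate 3, over all libraries left out in turn -0.253 to 0.12) and Ptpro (0.0225 without UIRI replicate 2, range -0.146 to 0.0225). When single libraries were left out, the 8 genes had a median log2 fold change that ran from -0.134 to 0.0489, and 0 to 1 of the 8 had an unadjusted p below 0.05 (Cd2ap without UIRI replicate 3, Synpo without UIRI + BA replicate 2). The other podocyte genes with such a p numbered 3 to 21, the rows of the whole table with such a p 808 to 4838, and the rows with an adjusted p below 0.05 from 0 to 962, the last without UIRI replicate 3. DESeq2 called 213 rows and the fit with a replicate block 6, beside 0. The replicate block changed no call of a podocyte gene. Deviations of same-numbered libraries from their group means correlated at -0.24, 0.304 and 0.155 over 17249 genes, so the numbers were not taken to pair the animals. Of the 10 genes most alike in pattern, 4 remained after quantile normalization, 5 after upper quartile scaling and 1 to 5 with a library left out. The causes of these shifts were not tested. With 3 animals per group, differences inside the intervals given for each gene cannot be resolved.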

Other observations

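The parietal epithelium, which lines the capsule around the glomerular tuft, was read from 7 genes. Of these, 6 were higher with BA, and the median log2 fold change of the 7 was 0.12. An unadjusted p below 0.05 was given to 2 (28.6%, beside 10.3% of all rows) and an adjusted one to 0 (limma). Without UIRI replicate 3 the median was 0.26, 4 genes had an unadjusted p below 0.05 and 2 (Cldn1 and Akap12) an adjusted one. In that fit 4838 rows of the whole table had such an unadjusted p and 962 such an adjusted p. Without any other single library 1 or 2 genes had an unadjusted p below 0.05 and 0 an adjusted one. Vcam1, an adhesion molecule that injured proximal tubule cells also make, read 13846, 15765 and 12595 in the vehicle mice and 17766, 17781 and 17980.0 in the BA mice, which is 0.35 on the log2 scale (limma adjusted p 0.311). The groups did not overlap. Cldn1, a tight junction gene, had a log2 fold change of 0.30 with overlapping groups (limma adjusted p 0.441). Pax2, Pax8 and Cd44 had log2 fold changes of 0.13, 0.06 and 0.12, and their groups overlapped. All of these genes are also transcribed outside the capsule, in tubules or leukocytes, and the part of those cells in the values was not tested.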
